A study of Mus musculus with 2 samples.

Results

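The mouse genome carries many genes for zinc finger proteins whose symbols begin with Zfp and a number, and a large part of them lie side by side in clusters of related copies. Members here are the protein-coding genes of GENCODE M21 (mouse assembly mm10) with such a symbol on chromosomes 7, 13 and 17. There were 174 of them among 21755 protein-coding genes, with 92 on chromosome 7, 36 on chromosome 13 and 46 on chromosome 17. The rule uses symbol and chromosome and no signal, although it was proposed with results of these data known.

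Most of these genes encode C2H2 zinc finger proteins, in which each finger is held by 2 cysteines and 2 histidines around a zinc ion and a run of fingers reads DNA. Many also carry a KRAB domain, which recruits the co-repressor Trim28 and with it histone H3K9 methylation, often at transposons. The clusters grew by tandem duplication, so neighbours share long stretches of sequence. CTCF is itself a C2H2 protein. It binds a long DNA motif, halts cohesin and thereby shapes chromatin loops, and is found in most tissues at a similar set of places.

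ChIP-seq, in which DNA bound by a protein is pulled down with an antibody and sequenced, gave the CTCF sites of newborn (postnatal day 0) mouse intestine. The mice were of the strain B6NCrl and their sex was not collected. The series has 1 group with 2 biological replicates, each made from pulverized tissue that pooled several dissections, so the values average over all cell types of the gut and over animals. Whether the 2 pools share animals is not stated in the labels, so their likeness may be partly technical. There was no treatment, genotype or second time point, and no expression was measured against which the tissue label could be checked by marker genes.

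Positions are peak summits of the optimal list, whose peaks passed a filter on the irreproducible discovery rate (IDR), which keeps peaks ranked similarly by replicates. That list held 73465 peaks with a median signal of 76.0, and each replicate's own list held 300000 peaks that reach down to much weaker ones. Signal is the authors' enrichment value for a peak and is used here for ranks and descriptions inside a list. The lists hold no read counts, so the sequencing depth behind a peak is unknown. A gene is called bound when an optimal summit lay within 10 kb of any of its annotated transcription start sites (TSSs). Distances of a gene's summit are to the nearest of these, which can lie inside the gene. Intervals on shares are Wilson 95% intervals. They cover counting alone, and clustered genes that share summits and sequence are not independent draws.

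The sites the results turn on are shown first. The first set comes from 1 cluster on chromosome 17, where 6 of the first 7 genes each had a peak just upstream. The sequences are read from the RefSeq FASTA of GRCm38.p6 (mm10), 5′ to 3′ on the strand of the motif, which is the minus strand in all 6, and the capitals mark the best match to the CTCF matrix.
Zfp677: ctgcttTCTCCACTAGATGGTGGTCttgtc
Zfp54: tggcttTCACCACTAGATGGTGGTCttgcc
Zfp51: ctgatgTTACCACTAGATGGCGGTCtgtca
Zfp52: cttcttTCACCACTAGATGGCGGACatgtc
Zfp948: ctgcttTCACCACTAGATGTCATTTtacta
Zfp983: ctgcttTCACCACAAGAAGGCAGACttgcc
The capitals lie at chr17:21383477-21383495 for Zfp677, chr17:21422772-21422790 for Zfp54, chr17:21449837-21449855 for Zfp51, chr17:21534606-21534624 for Zfp52, chr17:21566411-21566429 for Zfp948 and chr17:21650097-21650115 for Zfp983. None of the 6 lies in a coding exon of its gene.

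The second set lies inside coding exons of a chromosome 13 cluster. Here the capitals mark the stretch that aligned to the matrix match of Zfp459, and the sequence runs antisense to each gene.
Zfp459: acccaGGAACACAAGGTGGCTGTAattct
Zfp874b: acccaGGAACACAAGGTGGCTATAattct
Zfp712: acccaGGAACACAAGGTGGCTGTAattct
Zfp458: acccaGGAACACAAGGTTGCTGTAattct
These capitals lie at chr13:67413837-67413855, chr13:67481722-67481740, chr13:67052290-67052308 and chr13:67260120-67260138. Zfp459 and Zfp874b had a CTCF peak at the site, while Zfp712 and Zfp458 had none, although Zfp712 has the same 19 bases as Zfp459.

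The third set shows the sites under strong single peaks at genes with known roles, again with the matrix match in capitals.
Zfp57: atatcaCGGCCACACGAGGGCGCTGctgct
Zfp36: cagctgAAACCAGCAGGGGGCAGCAgagtc
Zfp523: cttcaTCACCAACAGGTGGCGCTGttggcc
Zfp568: gcgctgGGGGCGCTAGGTGGCTGTCccttt
The matches are at chr17:36997188-36997206 for Zfp57, chr7:28386670-28386688 for Zfp36, chr17:28204514-28204532 for Zfp523 and chr7:29983716-29983734 for Zfp568. The matrix is 19 bases long with the consensus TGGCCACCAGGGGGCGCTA. A site was called a motif at a score of 8.98 or more, the score that 5% of windows away from peaks reach, on either strand within 100 bases of the summit. The best match of Zfp568 scored 8.97 and missed that threshold narrowly.

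Of the 174 zinc finger genes, 121 were bound, or 69.5% (62.3% to 75.9%). Over all protein-coding genes the share was 73%, so the count of bound members was near the background. Within 1 kb of a TSS 82 members had a summit, or 47.1%, beside 45.7% of all protein-coding genes. The 220 Zfp genes of the other chromosomes were bound in 148 cases, or 67.3%. Of 30 Zscan and Zkscan genes, which encode fingers joined to a SCAN domain, 18 were bound.

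The members' shares varied between the 3 chromosomes, but their intervals overlap and no test of the difference was made. On chromosome 7, 69 of 92 members were bound (75%, 65.3% to 82.7%), beside 64.6% of the other protein-coding genes there. On chromosome 13 it was 21 of 36 (58.3%, 42.2% to 72.9%), beside 68.7% of the others. On chromosome 17 it was 31 of 46 (67.4%, 53.0% to 79.1%), beside 75.1%. The comparison on chromosome 7 turns on which genes stand beside the members: without olfactory and vomeronasal receptor genes, which are numerous there, the other genes were bound in 78% of cases. Without receptors the shares were 72.2% on chromosome 13 and 82.1% on chromosome 17, so members were then below the other genes on each of the 3 chromosomes. The members' intervals include the value of the other genes on chromosomes 7 and 13 in that comparison and not on chromosome 17.

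**Figure D1:**
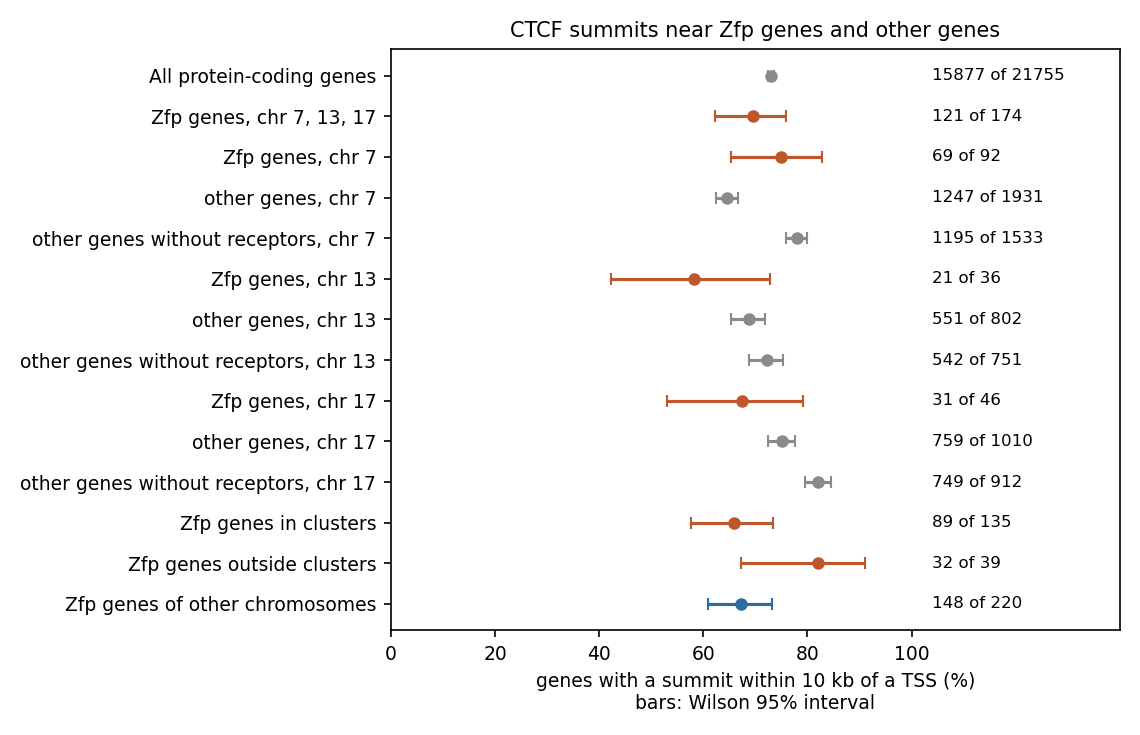
Share of genes with an optimal CTCF summit within 10 kb of a TSS (x axis, %), with Wilson 95% intervals as bars and the counts at the right; Zfp genes of the 3 chromosomes are red, Zfp genes elsewhere blue and other genes grey. The members lie at 69.5% beside 73% of all protein-coding genes, and members outside clusters (82.1%) lie above members inside them (65.9%).

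Grouping members no more than 250 kb apart gave 15 clusters of 3 or more genes, which held 135 members. Inside clusters 89 of 135 members were bound (65.9%, 57.6% to 73.4%), and outside them 32 of 39 (82.1%, 67.3% to 91.0%). The order was the same on each chromosome, with 54 of 75 against 15 of 17 on chromosome 7, 13 of 26 against 8 of 10 on chromosome 13, and 22 of 34 against 9 of 12 on chromosome 17. The strongest peak near bound members had a median signal of 106 inside clusters and 227 outside. Members inside clusters had a median of 1 summit and those outside 2, and the part of this number in the highest signal was not tested. Members outside clusters had a median of 4 TSSs and 20.4 kb in length, beside 3 TSSs and 15.2 kb inside. Their windows can therefore cover more sequence, and the part of this in the shares was not tested.

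Clusters were not simply poor in CTCF. Together they held 43.1 summits per Mb, beside 31.2 per Mb of the 3 chromosomes. Chromosome 7 accounts for this, with 61.4 per Mb inside clusters and 33.7 over the whole chromosome. Its clusters also held 42.6 protein-coding genes per Mb beside 14.3 over the chromosome. The part of gene density in the summit density was not tested. On chromosome 13 the order was the opposite, at 16.3 summits per Mb inside clusters and 24.9 over the chromosome, although protein-coding genes were again denser inside (28.5 and 7.15 per Mb). On chromosome 17 the clusters held 29.7 summits per Mb and the chromosome 35.6.

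Single clusters ranged widely. All 6 members of the cluster from Zfp628 to Zfp580 on chromosome 7 were bound, among 18 summits in 139 kb, and 9 of the 10 between Zfp553 and Zfp646 were, among 65 summits. At the other end, none of Zfp808, Zfp935 and Zfp934 on chromosome 13 was bound, and their 441 kb held 1 summit. In the chromosome 17 cluster from Zfp871 to Zfp414, 5 of 13 members were bound, with a gap of 269 kb between neighbouring summits. These clusters were picked out after their values were seen.

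The strongest peak of each gene had a median signal of 129 (19.04 to 441) at the 121 bound members and 234 over all bound protein-coding genes. This is the highest of a gene's peaks, and members had a median of 1 summit within 10 kb beside 2 for all protein-coding genes, bound or not. Over all distinct summits the medians were closer, at 69.4 near members and 76.6 for the other summits of the 3 chromosomes. By chromosome the members' medians were 131, 81.5 and 191 on chromosomes 7, 13 and 17, and those of the other genes there 278, 199 and 282. Among bound members, 81 had their strongest summit in the upper 50% of optimal signals and 8 in the top 10%. Of the bound members 50 had 1 summit, 71 had 2 or more, and 6 had at least 5. At 18 members the strongest summit was also within 10 kb of another member, and 113 strongest summits were distinct. At 29 members it was within 10 kb of a protein-coding gene that is no member. A peak named with a gene below is near that gene and need not act on it.

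The optimal list was filtered for peaks that the replicates rank similarly, so the likeness of their ranks here is set in part by that filter and is given as a description. Of the 121 strongest summits, 119 had a summit within 100 bases in both replicate lists, and in 118 of these the ranks were within 2 times of each other. Spearman's rho of the ranks was 0.97 across the genes, which can share a peak within a cluster. When each replicate list was shortened to its strongest 73465 peaks, 111 of the 121 summits were in both and 10 in 1 of them. The conservative IDR list held 113.

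On chromosome 17 the strongest peak belonged to Zfp523, the counterpart of human ZNF76. Its signal was 209 in replicate 1, 233 in replicate 2 and 441 in the optimal list, with the summit over a coding exon. Zfp57 encodes a KRAB protein that keeps DNA methylation at imprinted control regions. Its peak had a signal of 200.2 and 223 in the replicates and 422 in the optimal list, with the summit 3.97 kb upstream of the TSS and a motif of score 17.2. Zfp36l2, which encodes a CCCH protein that binds AU-rich RNA and not a C2H2 protein, had 10 summits, the most of any member, and 3 of them held a motif. Its strongest had 199 and 222 in the replicates and lay 3.15 kb upstream. Zfp119b had 196 and 190.4, with the summit 7.82 kb upstream in an intron of another gene. Zfp598, whose product is a ubiquitin ligase that senses collided ribosomes, had 191 and 185 with a summit 784 bases upstream of its nearest TSS. That TSS and the summit both lie inside the gene. At these 5 genes both replicates stood between 185 and 233, and every strongest site held a motif.

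On chromosome 7 the strongest peak was near Zfp541, a gene expressed in spermatocytes. Its signals were 215 and 219 in the replicates and 429 in the optimal list, 9.75 kb upstream and without a motif. Zfp36 encodes tristetraprolin, a CCCH protein that speeds the decay of AU-rich messenger RNA. It had 6 summits, all with a motif, and its strongest had 215 and 208 in the replicates, 6.41 kb upstream. Zfp788 had 222 and 195 at a summit 229 bases upstream, with no motif call (best score 8.07). Zfp553 had 185 and 203 with the summit 3.96 kb upstream, and Zfp473, whose human counterpart takes part in histone mRNA processing, had 164 and 208, the widest gap between replicates of these 5 genes. Zfp143, whose product binds many promoters and is often found near CTCF, had 7 summits, 5 with a motif, and a strongest signal of 126 and 111.

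Zfp568 encodes a KRAB protein known to repress a placental Igf2 transcript. Its peak lay 209 bases upstream of the TSS, with 149 in replicate 1, 141 in replicate 2 and 291 in the optimal list. As printed above, its best match to the matrix fell just short of a call.

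On chromosome 13 the strongest peaks were weaker than on the other 2. Zfp169 led with 114 and 145 in the replicates and 257 in the optimal list, 9.12 kb downstream of its nearest TSS and with a motif of score 20.2. Zfp346, whose product binds double-stranded RNA, had 102 and 122 at a summit 5.34 kb downstream of its nearest TSS. The other 3 of the leading 5 lie inside the large cluster and had promoter peaks without a motif. Zfp729a had 134 and 101 at 432 bases from the TSS, Zfp729b had 92.7 and 107 at 369 bases, and Zfp595 had 113 and 101 at 37 bases.

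Near members, 234 distinct summits were found. A promoter summit here is any within 1 kb of a TSS of any gene. Promoter summits made up 120 of the 234, or 51.3%, beside 23.2% of the other summits on the 3 chromosomes. Summits near members were taken from windows around TSSs, which favours promoters by construction. By distance to the members' TSSs, 45 summits lay within 200 bases and 57 between 200 bases and 1 kb. A further 9 lay between 1 and 2 kb, 43 between 2 and 5 kb and 80 between 5 and 10 kb. In that order the shares were 19.2%, 24.4%, 3.85%, 18.4% and 34.2%. Around the other protein-coding genes of the 3 chromosomes they were 18%, 19.5%, 12.5%, 24.2% and 25.8%.

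A motif was called at 140 of 234 (59.8%, 53.4% to 65.9%), beside 75.1% of the other summits on the 3 chromosomes. At promoters 49 of 120 had one (40.8%, 32.5% to 49.8%), beside 58.2% of other promoter summits (56.3% to 60.2%). The 2 sets of promoter summits had like median signals, 68.1 and 70.2. Intergenic summits near members held a motif in 83.8% of cases and other intergenic summits in 83.2%. Intronic summits near members held one in 38 of 53 cases (71.7%, 58.4% to 82.0%), beside 78.7% of other intronic summits. The larger share of promoter summits near members, where motifs were fewer in both sets, also enters the value over all summits. On chromosome 13, 5 of 20 promoter summits had a motif, on chromosome 7, 26 of 68, and on chromosome 17, 18 of 32 (56.2%), close to the 58.2% of other promoter summits on the 3 chromosomes. No test was made of these differences, since the members were chosen with results of these data known.

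**Figure D2:**
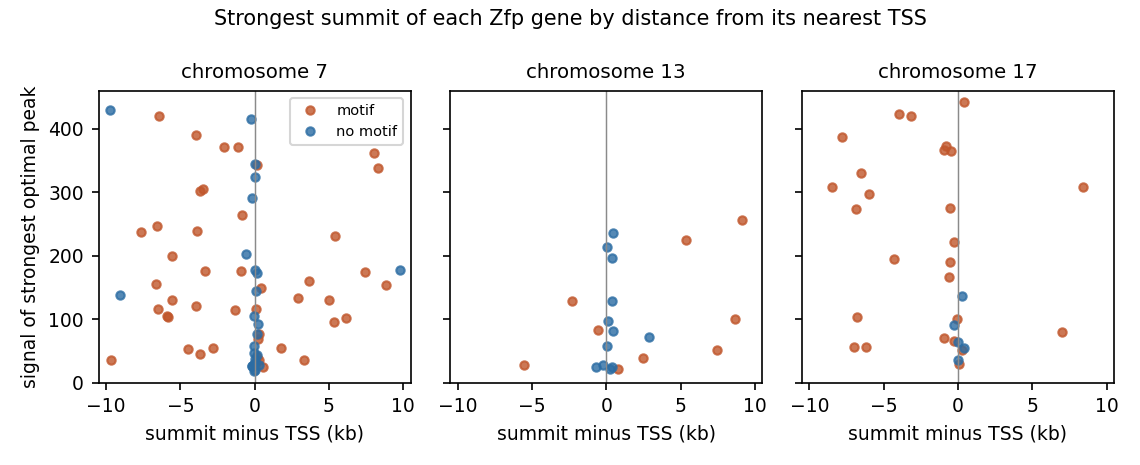
Signal of the strongest optimal peak of each of the 121 bound genes (y axis) against the distance of its summit from the nearest TSS of that gene in kb (x axis, negative is upstream), for each chromosome, red with a CTCF motif and blue without. Of the 70 strongest summits at promoters 31 have a motif, and of the 51 others 48 do.

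The same split held for the strongest summit of each gene. Of 70 that were promoter summits 31 had a motif, and of the other 51 all but 3 had. Motif-free promoter peaks could be strong. Zfp747 and Zfp764, neighbours on chromosome 7, had summits 8 bases from their TSSs with signals of 163 and 181 at Zfp747 and 166 and 160.2 at Zfp764, and best scores of 6.94 and 6.68. Both were named for these values after they were seen. Their 201-base summit windows were 90.1% identical.

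The cluster from Zfp677 to Zfp946 on chromosome 17 held 18 members, of which 14 were bound. The 6 upstream sites printed first all belong to genes on the plus strand with the motif on the minus strand. The Zfp677 peak had a signal of 99.4 in replicate 1 and 122 in replicate 2, 263 bases upstream of the TSS. The Zfp54 peak had 186 and 179.7 at 446 bases upstream. Zfp51 had 131 and 144 at 529 bases, and Zfp52, the strongest of the set, had 196 and 174 at 919 bases.

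Zfp948 and Zfp983 were the weaker pair, with 82.6 and 84.0 at Zfp948 and 80.1 and 111 at Zfp983. Motif scores of the 6 ran from 11.5 at Zfp948 to 20.9 at Zfp51. Signal did not follow the score strictly, as Zfp54 had a score of 16.7 and a higher signal than Zfp51. By alignment of the 201-base windows these 6 summits formed 1 related group with an intronic summit within 10 kb of both Zfp758 and Zfp944, whose signal was 159 and 149. Aligned pairs were 75.2% to 80.5% identical, and all 7 held a motif. The 6 genes were named after their values were seen.

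Zfp53 and Zfp760 lie in the same run of genes and had no optimal summit within 10 kb. The nearest was 13.5 kb away for Zfp53 and 25.9 kb for Zfp760. Both replicate lists held a peak within 10 kb of each gene. At Zfp53 the best ranks were 51493 in replicate 1 and 68307 in replicate 2, with signals of 19.6 and 12.3. At Zfp760 they were 87224 and 218018, with signals of 7.87 and 3.26. Only the ranks at Zfp53 lie within the length of the optimal list, so its missing summit was a closer call. The closest copy of the Zfp54 site within 2 kb of the TSSs of Zfp53 and Zfp760 was 5 edits away in both genes. It scored 0.98 at Zfp53 and -1.64 at Zfp760, both far below the threshold. The site of Zfp983, which had a peak, was also 5 edits away but scored 13.98, so the edits do not set these genes apart. Whether the closest copies at Zfp53 and Zfp760 are related to the Zfp54 site or only resemble it was not tested. The sequence around that closest copy was largely unique at Zfp53, where 98.8% of 32-base words within 100 bases occur once in the genome, and less so at Zfp760 (68.2%). The search ran from 2 kb before the first to 2 kb after the last TSS of each gene. Zfp942, also without a summit, had a closest copy 4 edits away with a score of 5.21, 5064 bases from its nearest TSS. Of the 18 members, 6 had a motif at the closest copy, and those 6 were the ones with a peak there. That count depends on the search window. Zfp758 and Zfp944 share 1 closest copy without a motif, and their related summit, 8.4 kb from the TSS of each, lay outside the window. Among all 20 motif-bearing summits of the cluster 15 had the motif on the minus strand and 5 on the plus strand.

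**Figure D3:**
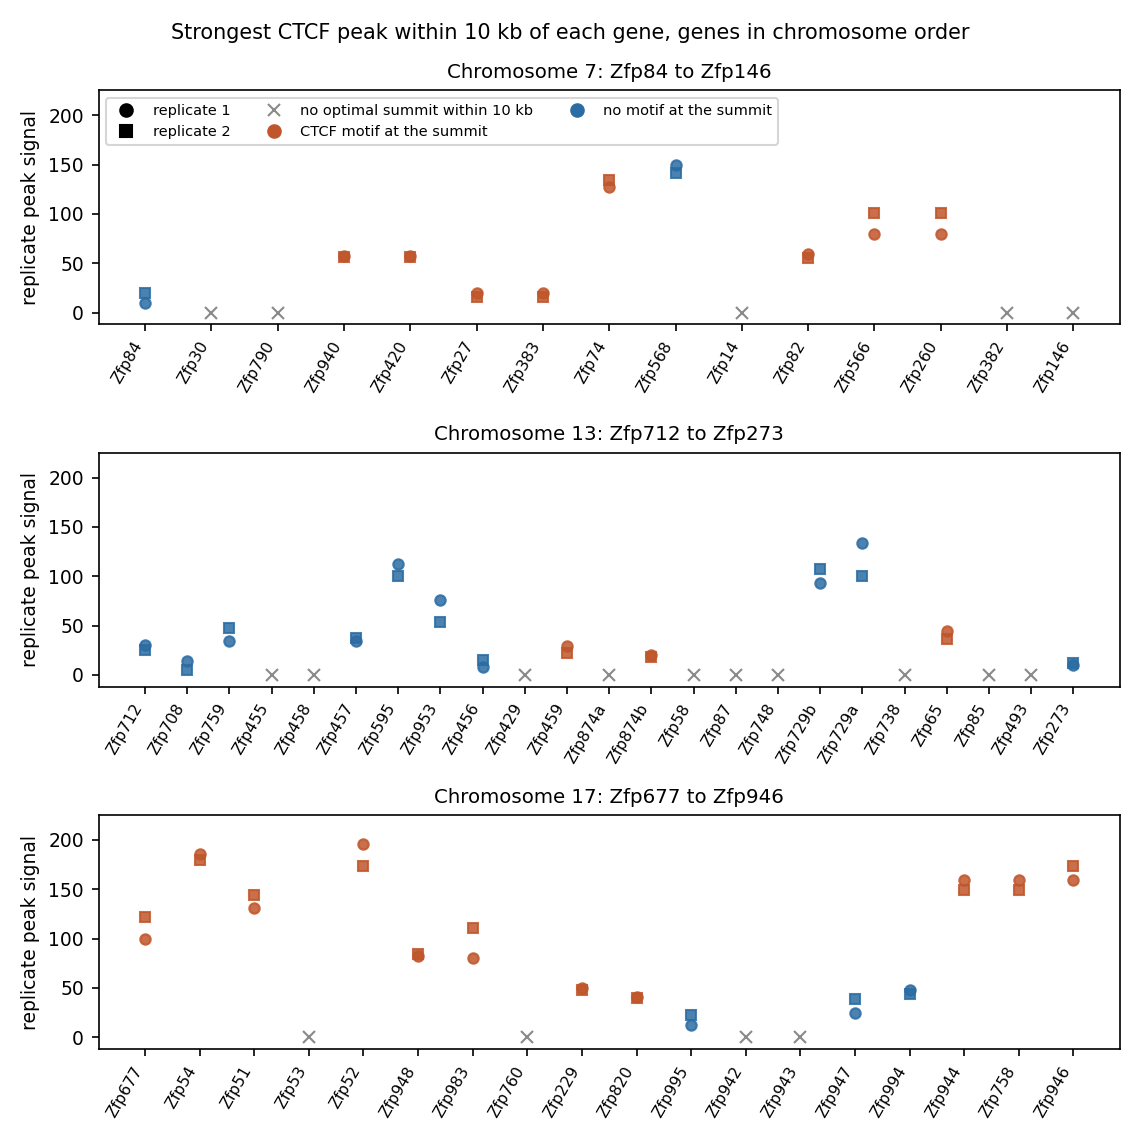
Signal of the strongest peak within 10 kb of each gene in replicate 1 (circles) and replicate 2 (squares), on each replicate's own scale (y axis), for the largest cluster of each chromosome with genes in chromosome order (x axis). Red marks a motif at the summit, blue none, and a grey cross a gene with no optimal summit; the first 3 genes on chromosome 17 are red, and 10 of the 13 bound genes on chromosome 13 are blue.

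The chromosome 13 cluster from Zfp712 to Zfp273 was the largest, with 23 members in 788 kb, of which 13 were bound. At 10 of the 13 the strongest summit had no motif. A copy of the Zfp459 site was looked for within each gene. In 21 of 23 genes the closest copy lay in a coding exon, before the fingers in Zfp459 and Zfp874b, where the peak was seen. It was identical in 6 genes and 1 edit away in 12. At 10 genes the copy reached the motif threshold, among them Zfp712, Zfp87, Zfp748, Zfp65 and Zfp493, where it was identical to that of Zfp459.

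Only Zfp459 and Zfp874b among these 10 had an optimal summit within 100 bases of the site. The Zfp459 peak had a signal of 28.9 in replicate 1 and 21.8 in replicate 2, and the Zfp874b peak 20.4 and 18.6. Their optimal signals, 52.4 and 39.1, were below that list's median of 76.0. The Zfp459 summit lay 68 bases from its site. At the other 8 genes neither replicate list held a peak summit within 100 bases of the copy. The share of 32-base words within 100 bases that occur once in the genome was 26.5% to 73.5% at the 8 sites (median 57.7%), 54.1% at Zfp459 and 98.2% at Zfp874b. Whether reads were lost at copies with few unique words was not tested, since the treatment of reads that map to several places is not given in the sources used here.

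A second related group in that cluster lay at promoters. It joined summits of Zfp759, Zfp953, Zfp729a, Zfp729b and Zfp65, with aligned pairs 77.05% to 94.98% identical and optimal signals from 35.5 to 235. The summits of Zfp759, Zfp953, Zfp729b and Zfp729a lay 419, 392, 369 and 432 bases downstream of the nearest TSS. For Zfp759 that TSS lies inside the gene and not at its start. Only that of Zfp65 held a motif. Zfp729a and Zfp729b share a best score of 8.47, below the threshold. On chromosome 17 the promoters of Zfp995, Zfp947 and Zfp994 formed a similar group, 91.9% to 95.8% identical, with signals of 36.5, 63.5 and 90.5 and no motif. In all, 12 groups of related windows held 44 of the 234 summits. They were not all promoters of neighbouring genes. Some groups included repeat-masked summits, since only pairs with both summits masked were left out, and some joined summits of different chromosomes.

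Summits over coding exons were found in 17 members, 1 in each, or 9.77% of members beside 12% of all protein-coding genes. By chromosome there were 10 on chromosome 7, 5 on chromosome 13 and 2 on chromosome 17. Per coding sequence this was 51.9 summits per Mb in members and 79.8 in the other genes of the 3 chromosomes. The median signal was 56.3, 11 of the 17 held a motif, and 10 lay within 1 kb of a TSS. All 17 were in the conservative list as well.

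Few lay over the fingers. Finger arrays, from the first to the last C2H2 pattern, made up 60.6% of the coding bases of all members. Of the 17 summits 2 fell in such an array, in Zfp444 and Zfp575. Another 12 fell before the fingers, 1 after them in Zfp523, and 2 in Zfp36 and Zfp36l2, which have no C2H2 pattern. The share of 60.6% was not counted for the 17 genes alone. All of these but Zfp418, with 14 patterns, had 10 or fewer, beside a median of 11 over members. In addition, 10 of the 17 summits lay within 1 kb of a TSS. Whether arrays of this length and position held fewer summits than other coding sequence was not tested. Read mapping over the fingers was not tested either. Zfp444 had a signal of 51.7 and 49.8 in the replicates and a motif of score 9.31. Zfp575 had 9.87 and 13.7, among the weakest.

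**Figure D4:**
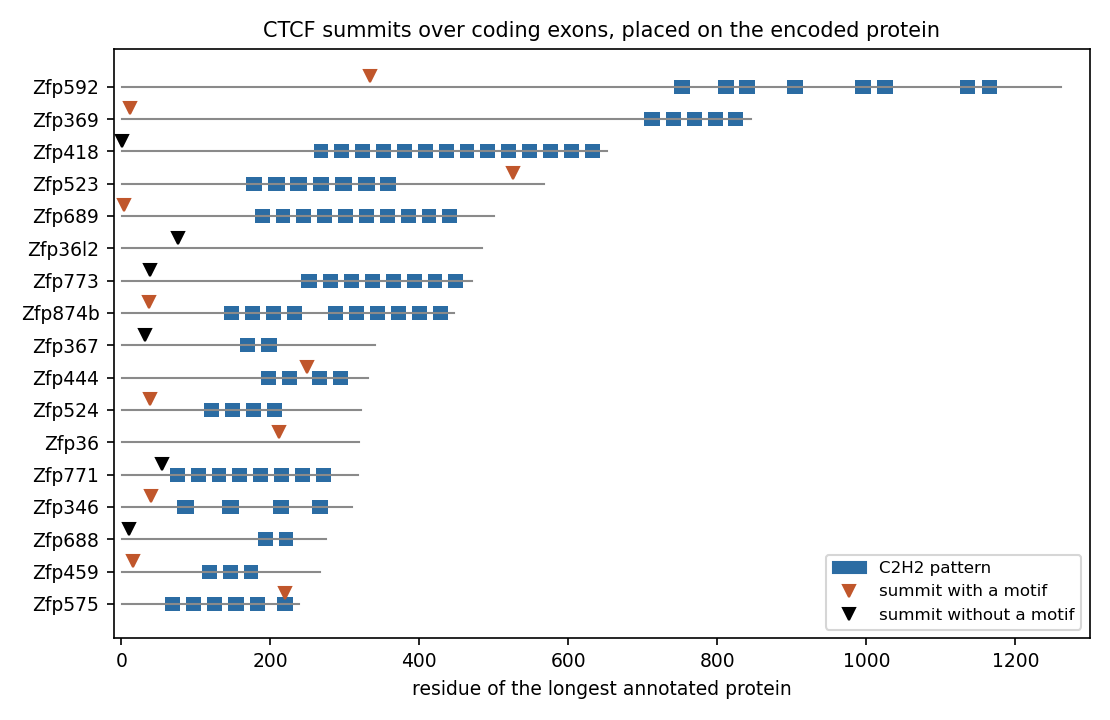
The 17 coding-exon summits (triangles, red with a motif and black without) placed on the longest protein of each gene (grey line, x axis in residues), with C2H2 patterns as blue boxes. Summits of Zfp444 and Zfp575 fall inside the run of fingers, that of Zfp523 after it, and Zfp36 and Zfp36l2 have no such pattern.

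The strongest coding summit was that of Zfp523, at residue 526 of 568. The next was Zfp773, with 86.6 and 82.9 in the replicates at residue 39, 190 bases from the TSS and without a motif. Zfp346 had 58.9 and 70.3 at residue 40 with a motif of score 12.8, and Zfp688 had 51.0 and 54.7 at residue 10 without one. Zfp369 had 38.4 and 41.0, Zfp418 had 32.1 and 46.1 at its first residue, and Zfp592 had 28.7 and 41.7 at residue 334 with a motif of score 15.98. Zfp367 had 20.5 and 21.1 without a motif, and the coding summits of Zfp36 and Zfp36l2 had 35.7 and 22.4, and 31.6 and 22.7. In the optimal list of 73465 peaks, the coding peaks other than that of Zfp523 ranked from 22701 at Zfp773 to 65430 at Zfp575.

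Counts within 10 kb differed with the number of fingers, and counts within 1 kb did not follow the same order. Of 28 members with 1 to 7 C2H2 patterns 25 were bound (89.3%, 72.8% to 96.3%), of 74 with 8 to 12 patterns 49 (66.2%, 54.9% to 76.0%), and of 69 with 13 or more 45 (65.2%, 53.4% to 75.4%). Of the 3 members without a pattern 2 were bound. The intervals overlap and no test of the difference was made. Within 1 kb of a TSS a summit was found at 14 of the 28, 30 of the 74 and 37 of the 69. The CpG content around the gene start gave a like picture. With an observed to expected CpG ratio of at least 0.65 around the gene start, 49 of 61 had a summit within 10 kb, from 0.35 to 0.65 it was 58 of 89, and below 0.35 it was 14 of 24. Within 1 kb the counts were 30 of 61, 44 of 89 and 8 of 24, so the upper 2 classes had nearly the same share. Among the 121 bound members the strongest signal had a Spearman's rho of 0.13 with the CpG ratio and -0.12 with the number of fingers. These are descriptions across genes that share clusters.

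The 53 members without an optimal summit lay a median of 25.4 kb from the nearest one (10.7 to 173 kb), and 41 of them had one within 50 kb. Of the 53, 40 had a peak of both replicate lists within 10 kb, or 75.5%, beside 45% of all protein-coding genes without an optimal summit. Those genes include olfactory and vomeronasal receptors, and the share without them was not counted. Among the strongest 73465 peaks of each replicate, 8 of the 53 had one within 10 kb in replicate 1 and 5 in replicate 2. Within the largest clusters, Zfp30, Zfp790 and Zfp14 on chromosome 7 lay 15.2, 34.9 and 11.3 kb from the nearest summit. Zfp455, Zfp458 and Zfp429 on chromosome 13 lay 19.9, 25.1 and 14.1 kb from it, and Zfp942 on chromosome 17 lay 23.1 kb from it.

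Unique sequence was scarcer around some of these genes. Within 10 kb of the gene start, 10 of the 53 members without a summit had fewer than 50% unique 32-base words, and 6 of the 121 bound members did. Medians were 82.6% and 89.1%. The 8 members with the lowest shares all lacked a summit. They were Zfp97 (1.5%), Zfp955b (2.9%), Zfp955a (12.7%), Zfp935 (22.7%), Zfp960 (26.9%), Zfp808 (29%), Zfp934 (37.6%) and Zfp772 (39.4%), named for this order. Zfp30, by contrast, had no summit with 96.9% unique words. A count added after seeing the data took genes with at least 50% unique words within 1 kb. Of 160 such members 116 were bound (72.5%), beside 72.9% of the other genes of the 3 chromosomes under the same limit. Without the limit the shares were 69.5% and 68.3%. The other genes include olfactory and vomeronasal receptors. Leaving the receptors out gave 77.8% without the limit, and their share under the limit was not counted. The part of read mapping in the missing summits was not tested beyond these counts.

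**Figure D5:**
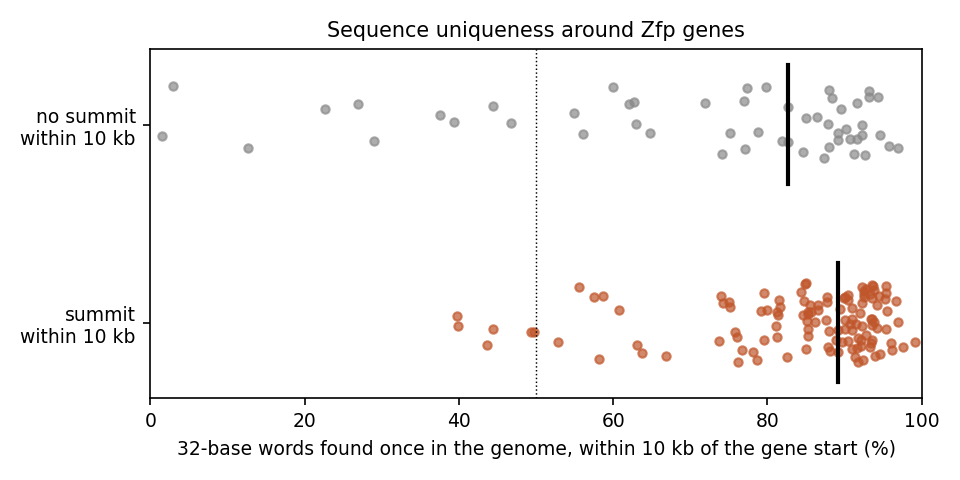
Share of 32-base words within 10 kb of the gene start that occur once in the genome (x axis, %), 1 point per gene, for the 121 bound genes (red) and the 53 others (grey); black bars are medians and the dotted line marks 50%. The bars stand at 89.1% and 82.6%, and the 8 lowest points are all genes without a summit.

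The genes whose products carry out silencing with KRAB zinc finger proteins were given for comparison. All 18 of the list, which includes Trim28, Setdb1, Atf7ip, the HP1 genes Cbx1, Cbx3 and Cbx5, Dnmt1 and Uhrf1, had a summit within 10 kb, beside the 73% of all protein-coding genes. These genes had a median of 7 TSSs and 34.1 kb in length, beside 3 TSSs and 17.4 kb over all protein-coding genes, so their windows cover more sequence. Trim28, which lies on chromosome 7, had 5 summits and a strongest signal of 179. Signals of the list ran from 10.3 at Hdac2 to 459 at Pphln1.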

How the data were processed

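CTCF ChIP-seq peak lists of 2 replicates, of pooled reads and of 2 IDR filters were used on mm10, per the labels. Signal is each peak's enrichment as the authors deposited it. How it was normalized, the aligner, the peak caller, the IDR threshold and any control's role were not given in the sources used here. A summit is the peak start plus the deposited offset. The members, gene lists and tests were chosen with earlier results of these data known. Genes named by rule were, on each chromosome, the 5 with the strongest summit, up to 5 with the strongest coding-exon summit and the first 3 without a summit in the largest cluster, plus Zfp57, Zfp568, Zfp143, Zfp36 and Zfp36l2; all others were chosen after their values were seen.

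The motif matrix was trained in 6 rounds (pseudocount 1) on the 5000 strongest optimal peaks of chromosomes with even numbers, so chromosomes 7, 13 and 17 were not used in training. Its threshold is the score that 5% of 9089 windows 1 kb from training peaks reach, leaving out windows with a summit within 500 bases. C2H2 patterns were searched in the translated longest coding sequence of each gene. Summit windows were aligned with BLAST+ 2.17.0 (at least 60 bases and 75% identity, leaving out pairs in which both summits are repeat-masked), and site copies found with edlib by edit distance. Words of 32 bases were counted over the assembled genome on both strands. Python 3.11.15, numpy 2.4.6, numba 0.67.0, pysam 0.24.0 and samtools 1.23.1 were used, and the counting, motif, finger and word steps were tested on simulated data. Nothing was tested between groups, since there is 1 group.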

Additional observations from a re-analysis of the deposited data

How the results depend on the processing

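The count of bound members, 121 in the report (69.5% beside 73% of all protein-coding genes), was 123 with the conservative list (70.7% beside 72%). With the strongest 50% of peaks it was 81 (46.6% beside 56.2%), a wider gap below all genes than in the main count. Within 2 kb of a TSS it was 88 (50.6% beside 52.8%) and within 50 kb 162 (93.1% beside 88.4%). Without replicate 1 the count was 122 (70.1% beside 73%) and without replicate 2 it was 127 (73% beside 73%). In each case the strongest 73465 peaks of the other replicate were taken. The 17 coding-exon summits became 33 when any base of a peak counted and 7 outside promoters, and remained 17 in number (17 to 17) with either replicate left out. Summits near members with a motif fell from 140 to 90 at the threshold that 1% of flanks reach, which was 38.5% beside 53.7% of other summits. With gaps of 100 kb or 500 kb, 124 or 145 members lay in clusters. Limits on unique words were chosen after seeing the data. At least 50% within 10 kb left 115 bound of 158 members (72.8%). The share of other genes under that limit was not counted, so the 73% of all genes is no match for it.

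No paired analysis was possible because the series has 1 group and no comparison between groups. The lists give no read depth, so weak binding and a missed peak cannot be told apart, and with 2 replicates no spread within the group can be estimated for a single peak beyond the 2 values. Near-identical copies limit what can be said of single genes in the clusters.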
